A study of Mus musculus with 4 samples.

Results

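The genes described here are 10 eicosanoid genes of mouse skin, taken from the deposited table by symbol. They are Ptgs1, Ptgs2, Ptges, Ptgds, Hpgd and Ptger4 of the prostaglandin arm and Alox5, Alox5ap, Ltc4s and Alox15 of the lipoxygenase arm, and all 10 were found among its 24441 genes. RNA was sequenced from the skin lesions of 2 WT and 2 GSDMD-/- (KO) mice, 1 library each, to ask which transcripts differ when gasdermin D, the pore-forming protein that executes pyroptosis, is missing. All 4 animals were female C57BL/6 mice of postnatal week 8 that had received bleomycin (BLM), a fibrosis-inducing cytotoxic agent, subcutaneously every other day for 28 days. The WT group is thus BLM-treated as well, and no skin without BLM was analysed here. The KO mice were a purchased line made by injecting Cas9 mRNA and gRNA into C57BL/6 zygotes, so the edit is carried by every cell type and not by 1 lineage. Skin was sampled whole, and for such tissue fewer cells of a type and less RNA per cell cannot be told apart.

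Eicosanoids are short-lived lipid signals made from arachidonic acid, which phospholipase A2 enzymes free from membranes. The cyclooxygenases encoded by Ptgs1 (COX-1, expressed in many resting cells) and Ptgs2 (COX-2, induced by inflammatory stimuli) turn it into prostaglandin H, from which terminal synthases such as those of Ptges and Ptgds make prostaglandins E and D. The other arm starts with the 5-lipoxygenase of Alox5, which in intact cells needs its partner FLAP, encoded by Alox5ap, and which yields leukotriene A. Leukotriene C synthase (Ltc4s) couples this to glutathione to give the cysteinyl leukotrienes, and leukotriene A hydrolase (Lta4h) makes leukotriene B, a chemoattractant for myeloid cells. In skin, myeloid and mast cells are known for leukotrienes, keratinocytes and fibroblasts for prostaglandins, and prostaglandin E is known to restrain collagen production by fibroblasts.

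The promoters of the 4 members on which the comparison below turns are shown for their starting sequence: the inducible Ptgs2, its paired enzyme Ptgs1, and the enzymes that make leukotriene A and leukotriene C. Each runs from 250 bases before to 50 bases after the start site, 5′ to 3′ on the gene's strand, from RefSeq on build GRCm38.p6, where 8 of the 10 members had an entry. They lie at chr2:36230176-36230475 (+) for Ptgs1, chr1:150099781-150100080 (+) for Ptgs2, chr6:116461129-116461428 (-) for Alox5 and chr11:50238483-50238782 (-) for Ltc4s. Capitals mark every match on either strand to TATAAA (the letters of a TATA box), TGACG (the core of a CRE), TTGCNNAA (C/EBP), TGANTCA (the letters of AP-1), GGANTTTCC (NF-kB) or GAGGAA (core of the myeloid ETS factor PU.1), and no matches overlap.
Ptgs1: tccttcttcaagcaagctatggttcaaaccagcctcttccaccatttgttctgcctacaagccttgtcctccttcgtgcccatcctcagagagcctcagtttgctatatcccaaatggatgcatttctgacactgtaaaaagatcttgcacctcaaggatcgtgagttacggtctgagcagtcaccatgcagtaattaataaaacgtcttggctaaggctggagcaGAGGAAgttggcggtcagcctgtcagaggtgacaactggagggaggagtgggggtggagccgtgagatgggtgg
Ptgs2: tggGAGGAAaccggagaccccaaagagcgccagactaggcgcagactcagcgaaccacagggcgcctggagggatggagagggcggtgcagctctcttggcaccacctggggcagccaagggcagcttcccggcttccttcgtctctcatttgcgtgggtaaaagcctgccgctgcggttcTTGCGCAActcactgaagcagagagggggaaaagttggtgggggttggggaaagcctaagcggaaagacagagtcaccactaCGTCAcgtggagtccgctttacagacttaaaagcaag
Alox5: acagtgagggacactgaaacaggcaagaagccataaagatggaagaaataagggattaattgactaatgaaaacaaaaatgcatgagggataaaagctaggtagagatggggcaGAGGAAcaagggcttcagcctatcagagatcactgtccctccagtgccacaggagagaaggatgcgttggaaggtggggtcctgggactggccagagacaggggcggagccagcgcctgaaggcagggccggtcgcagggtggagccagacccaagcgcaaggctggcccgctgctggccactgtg
Ltc4s: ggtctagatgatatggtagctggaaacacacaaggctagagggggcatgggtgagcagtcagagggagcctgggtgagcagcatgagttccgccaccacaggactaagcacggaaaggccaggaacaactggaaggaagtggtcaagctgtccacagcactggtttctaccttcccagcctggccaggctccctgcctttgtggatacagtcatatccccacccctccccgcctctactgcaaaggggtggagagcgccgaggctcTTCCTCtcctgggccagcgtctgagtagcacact

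The Ptgs2 window held 3 matches: GAGGAA from position -247, a C/EBP motif from -69, and TGACG on the other strand from 14, counted from the RefSeq start site. Unlike the ends of the other windows shown, the end of the Ptgs2 window was not found in a GENCODE coding transcript. Its start site is therefore less certain, and its positions hold for the RefSeq start alone. The other 3 windows each held GAGGAA alone, from -24 in Ptgs1, from -136 in Alox5, and on the other strand from 17 in Ltc4s. GAGGAA was present in 6 of the 8 member promoters and in 28.3% of the 32851 mouse promoters of this length. The C/EBP motif was present in 10.8% and TGACG in 20.8% of them, and each occurred in 1 member promoter, that of Ptgs2. NF-kB letters, present in 1.25% of all promoters, were in none of the 8. These matches describe letters only and say nothing of whether a factor bound there.

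Values are FPKM, fragment counts divided by transcript length and library depth, as deposited by the authors, and they summed to between 448544 and 462251 per library. The steps between low values put the depth at about 12800000 to 17500000 fragments, so that 3 fragments on 1 kb of transcript, taken as the floor, correspond to 0.171 to 0.235 FPKM. Gsdmd itself stood at 14.0 and 18.2 FPKM in the WT pair against 3.53 and 2.26 in the KO pair. Both skin keratins checked were abundant in all libraries (Krt5 from 764 to 1728 FPKM). KO replicate 2 stood apart: its summed macrophage markers were 95.9 FPKM against 876 in KO replicate 1 and 2128 and 2207 in WT mice, its Col1a1 was 2.34 FPKM against 33.2 to 59.8 in the others, and its endothelial, fibroblast and adipocyte lists were the lowest of the 4 libraries. KO replicate 1 had the highest hair follicle list, at 344 FPKM against 21.2 in KO replicate 2 and 10.6 and 2.25 in WT mice. Where leaving out 1 library ends a call on a single gene below, that is said. Counts of called markers are those with all 4 libraries, and each was smaller without WT replicate 2.

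Gene by gene, log2(FPKM + 1) was compared between genotypes with limma over 13027 genes, and 9 of the 10 members were abundant enough to be tested. An adjusted p under 0.05 with an absolute log2 fold change above 1 was reached by 0 members and by 0 of all genes (0.0%), while 2230 of all genes had an unadjusted p under 0.05. Past the looser limits of an unadjusted p under 0.05 and the same fold change, 3 members were lower in KO mice (Alox5, Alox5ap and Ltc4s), where 4.14% of all genes were, and 1 was higher (Ptgs1), where 6.16% were. Both KO values lay below both WT values in 4 members and above them in 2, against 20.5% and 35.3% of all tested genes, and the groups overlapped in 3. One of the 4, Ptgs2, was tested only because it passed the filter on low values in its WT libraries. The median log2 fold change of the 9 members was -0.29, beside 0.11 over all genes tested. That overall shift came to 0.01 with other scalings, and the split of genes past the looser limits moved from 59.8% higher to 47.2% (median-ratio factors) or 47.4% (upper quartile). Likewise 3419 of all genes then lay below and 3619 above without overlap (median-ratio factors; 3477 and 3569 with the upper quartile), in place of 2668 and 4595, but the direction of each of the 9 members stayed. With 2 mice per group, p-values measure only the spread between these few samples.

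**Figure D1:**
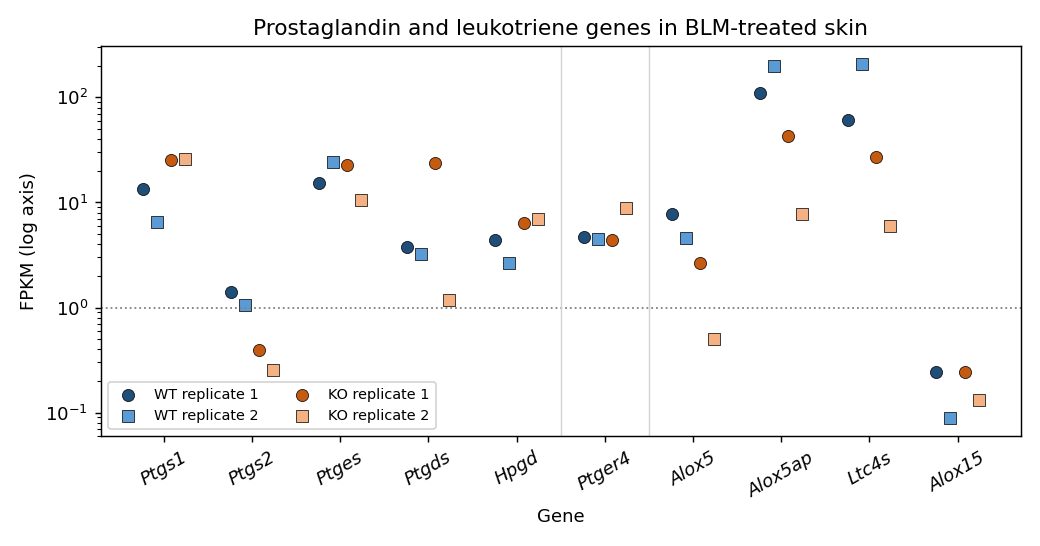
FPKM (log axis) of the 10 genes in each library, with blue symbols for WT mice, orange symbols for KO mice and a dotted line at 1 FPKM. Alox5, Alox5ap, Ltc4s and Ptgs2 were lower in both KO libraries, Ptgs1 and Hpgd were higher in both, and Ptgds spread from 1.17 to 23.8 FPKM between the KO libraries.

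The leukotriene branch showed the largest differences among the members. Its first enzyme, Alox5 (chr6:116360089-116411196 on mm9, minus strand), measured 7.70 and 4.58 FPKM in the WT pair against 2.68 and 0.501 in the KO pair. Both KO values lay below both WT values, and the WT mean of 6.14 ± 2.21 FPKM (SD, n = 2) was 3.86-fold the KO mean of 1.59 ± 1.54 (SD, n = 2). The log2 fold change was -1.57 (SE 0.51) with a limma p of 0.0265 and an adjusted p of 0.260. Without KO replicate 2 it was -0.92, short of the fold limit.

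FLAP, the membrane protein that presents arachidonic acid to 5-lipoxygenase, is encoded by Alox5ap (chr5:150076580-150099729, plus strand). Its transcript was among the most abundant of the members, with 109 and 198 FPKM in the WT pair against 42.8 and 7.84 in the KO pair. The groups did not overlap, but on the log scale the KO replicates differed more from each other than did the WT replicates. The WT mean of 153.8 ± 63.1 FPKM was 6.07-fold the KO mean of 25.3 ± 24.7 (SD, n = 2 each), and the log2 fold change was -2.91 (SE 0.80, limma adjusted p = 0.248). Leaving out KO replicate 2 gave -1.76, and leaving out KO replicate 1 gave -4.07.

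Ltc4s (chr11:50049963-50052034, minus strand), which commits leukotriene A to the cysteinyl leukotrienes, had the largest log2 fold change of the 9 tested members. It stood at 60.3 and 209 FPKM in the WT pair against 27.0 and 6.03 in the KO pair. Every KO value was below every WT value, although WT replicate 1 was closer to KO replicate 1 than to WT replicate 2. The WT mean (134.8 ± 105.4 FPKM) was 8.15-fold the KO mean (16.5 ± 14.9 FPKM; SD, n = 2 each). The log2 fold change of -3.02 (SE 0.86) gave a limma p of 0.0169 and an adjusted p of 0.248. Its exons overlap those of the opposite-strand lincRNA Gm16641, whose reads cannot be told apart unless strand was used in counting.

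The calls on these 3 genes depended on single libraries. Without KO replicate 1, all 3 passed the strict threshold, with limma adjusted p-values of 0.00841 for Alox5, 0.00152 for Alox5ap and 0.00620 for Ltc4s, but 2058 of all genes did so too, and the lone KO sample is then assumed to vary like the WT pair. Without KO replicate 2, Alox5ap and Ltc4s (-2.02) stayed past the looser limits. Without WT replicate 2, Alox5 (-1.89) was past them, whereas Alox5ap (-2.48) and Ltc4s (-2.13) were not, and without WT replicate 1, Alox5 (-1.25) was not.

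Macrophage markers were lower in the same libraries. All 11 tested markers of that list had negative log2 fold changes, 6 of them past the looser limits, and none was at 0 in any library; without KO replicate 2 it was 10 of 11. Measured against the median log2 level of the list within each library, Alox5ap stood 0.77 and 0.71 above it in WT mice and 1.34 and 0.72 above it in KO mice. Ltc4s stood at -0.08 and 0.79 relative to the list in WT and at 0.70 and 0.39 in KO mice, so that its groups overlapped. Alox5, a less abundant transcript, lay below the list by a smaller distance in KO mice (-2.23 and -1.84) than in WT mice (-2.90 and -4.45), on a scale where distances shrink as values near 0. Relative to these markers, then, none of the 3 genes was lower in both KO libraries than in both WT libraries.

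Other cells known for leukotriene synthesis were looked at by their markers. Neutrophil markers summed to 765 and 627 FPKM in the WT pair against 312 and 152 in the KO pair. All 5 tested markers had negative log2 fold changes, and 4 were past the looser lower limits, but fewer were without either WT replicate. Their median log2 fold change was -1.48, and -1.44 without either WT replicate. The median log2 level of the whole list overlapped between the groups, at 0.71 and 0.60 in WT and 1.47 and 0.28 in KO mice. It covers all 11 genes of the list, untested ones included, and 2 of them were at 0 in each KO library, so it rests on low values. Mpo and Ly6g were listed at 0 in both KO libraries and were at most 0.238 FPKM in WT mice. Mast cell markers summed to 77.3 and 86.4 FPKM in the WT pair against 107 and 13.0 in the KO pair. Of 7 tested, 1 was past the looser lower limits, but not without WT replicate 2. Eosinophil markers summed to at most 0.455 FPKM in any library, with Epx at 0 in all 4, and none was tested. The platelet list summed to 229 and 223 FPKM in the WT pair against 66.7 and 11.9 in the KO pair. Its median log2 level was 1.11 and 1.10 in WT against 0.59 and 0.68 in KO mice. Of 3 tested markers 2 had negative log2 fold changes and 1 a positive one. Past the lower limits was 1 of 3, but not without either WT replicate. How much of the difference in the 3 leukotriene genes goes with each of these cells was not tested.

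**Figure D2:**
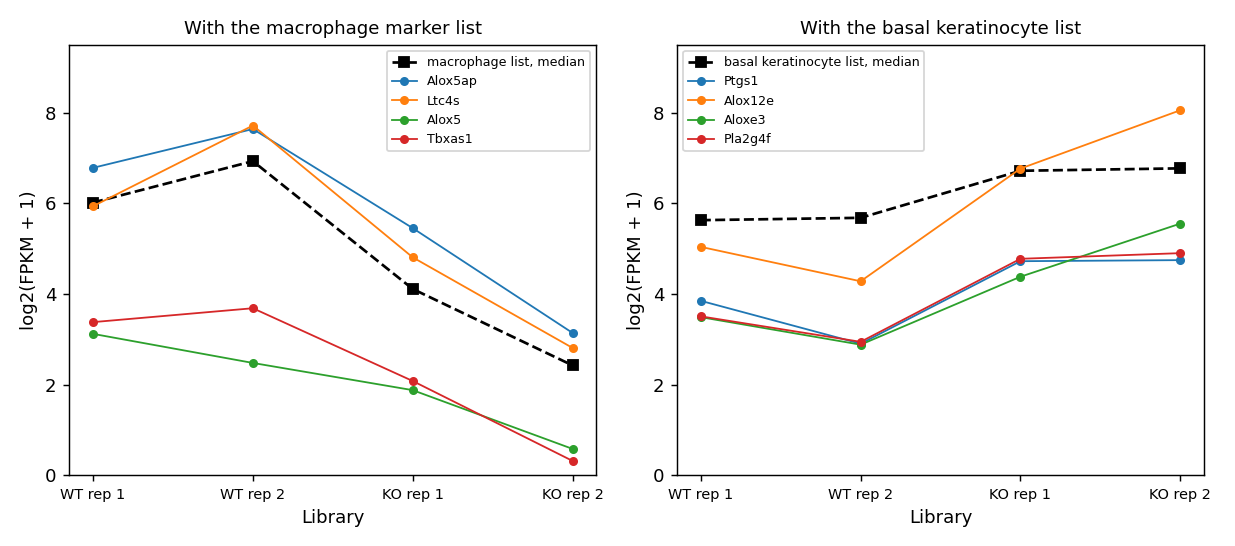
Levels on the log2(FPKM + 1) scale in the 4 libraries (lines join the libraries for reading only), with the median of a marker list dashed. Left, Alox5ap and Ltc4s lie near the macrophage list in every library, and Alox5 and Tbxas1 lie well below it (Alox5 at -1.84 to -4.45 relative to the list). Right, Ptgs1, Alox12e, Aloxe3 and Pla2g4f beside the basal keratinocyte list, all higher in both KO libraries.

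Alox15 (chr11:70157649-70165533, minus strand), the lipoxygenase of eosinophils and resident macrophages that makes precursors of lipoxins, was hardly detected. Its values were 0.241 and 0.0883 FPKM in the WT pair against 0.246 and 0.133 in the KO pair. These correspond to about 10.2 and 3.04 fragments in WT and 8.11 and 4.08 fragments in KO libraries on its 2409-base transcript. The groups overlapped, and with so few fragments a difference was not detectable at this depth.

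Of the cyclooxygenases, Ptgs1 was past the looser limits on the higher side and Ptgs2 missed the fold limit. Ptgs1 (chr2:36085946-36107791, plus strand) measured 13.4 and 6.49 FPKM in the WT pair against 25.4 and 25.9 in the KO pair. Both KO libraries were above both WT libraries and nearly equal to each other, and the KO mean of 25.7 ± 0.307 FPKM was 2.58-fold the WT mean of 9.96 ± 4.90 FPKM (SD, n = 2 each). The log2 fold change was 1.36 (SE 0.37) with a limma p of 0.0140 and an adjusted p of 0.248. It was nearly the same without either KO library (1.37 and 1.35), but 0.89 without WT replicate 2 and then short of the looser limits.

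Basal keratinocyte markers were also higher in both KO libraries, at 4574 and 4591 FPKM in sum against 2134 and 2051 FPKM in WT mice. Past the looser limits were 5 of 5, and 2 of 5 with other scalings. Fewer than 5 were past them without either WT replicate or without KO replicate 2. Their median log2 fold change was 1.11, and 1.10 to 1.16 when 1 library was left out. Relative to the median log2 level of that list, Ptgs1 stood at -1.78 and -2.78 in WT mice and at -1.99 and -2.02 in KO mice. On this relative scale the groups overlapped. COX-1 is also known from platelets, whose list is given above, and from endothelium, whose list summed to 67.6 and 98.1 FPKM in the WT pair against 93.0 and 7.88 in the KO pair. Which cells the higher Ptgs1 came from was not tested.

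Ptgs2 (chr1:151947161-151955364, plus strand) was low in every library, with 1.41 and 1.05 FPKM in the WT pair against 0.394 and 0.255 in the KO pair. On its 4143-base transcript this is about 102 and 62.0 fragments in WT and 22.4 and 13.5 fragments in KO libraries. Both KO values lay below both WT values, and the WT mean (1.23 ± 0.253 FPKM) was 3.78-fold the KO mean (0.325 ± 0.0984 FPKM; SD, n = 2 each). On the log2(FPKM + 1) scale, which compresses such low values, the fold change was -0.75 (SE 0.25, limma adjusted p = 0.262), short of the fold limit. It was -1.65 with a pseudocount of 0.1 and then past the looser limits. Ptgs2 passed the filter on low values through its WT libraries alone, so it could be tested only by being higher there.

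Among the terminal steps, prostaglandin E synthase (Ptges, chr2:30744991-30758817, minus strand) did not separate the groups. It measured 15.3 and 24.1 FPKM in the WT pair against 22.5 and 10.6 in the KO pair, with a log2 fold change of -0.29 (SE 0.44, limma adjusted p = 0.724). KO replicate 1 lay between the WT libraries and KO replicate 2 below them. Ptgds (chr2:25322232-25325269, minus strand), the lipocalin-type prostaglandin D synthase, measured 3.77 and 3.24 FPKM in the WT pair against 23.8 and 1.17 in the KO pair. The WT libraries were thus close to each other and sat between the KO libraries, and the log2 fold change of 0.71 (SE 1.12, limma adjusted p = 0.743) had the largest standard error of the members. Without KO replicate 2 it was 2.46 (limma adjusted p = 0.0293, where 43 of all genes passed the strict threshold), and without KO replicate 1 it was -1.05, the opposite direction. The library with the highest Ptgds was also the one with the highest hair follicle markers. Relative to the median log2 level of that list Ptgds stood at 1.41 and 2.00 in WT mice and at 0.25 and -0.14 in KO mice. That median was very low in WT mice (0.84 and 0.08, against 4.38 and 1.26 in KO mice), so the WT distances largely reflect Ptgds itself. The part of the hair follicle in the Ptgds values was not tested.

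Hpgd (chr8:58773349-58799843, plus strand) encodes the dehydrogenase that inactivates prostaglandins once they are taken back into the cell. It stood at 4.35 and 2.63 FPKM in the WT pair against 6.39 and 6.99 in the KO pair, each KO value above each WT value. The KO mean of 6.69 ± 0.424 FPKM was 1.92-fold the WT mean of 3.49 ± 1.22 FPKM (SD, n = 2 each), and the log2 fold change of 0.80 (SE 0.29, limma adjusted p = 0.278) was short of the fold limit. It was 0.52 without WT replicate 2 and 1.08, then past the looser limits, without WT replicate 1. Ptger4 (chr15:5183399-5194187, minus strand), the Gs-coupled receptor EP4 for prostaglandin E, measured 4.67 and 4.47 FPKM in the WT pair against 4.39 and 8.82 in the KO pair. Only KO replicate 2 stood above the WT pair, and the log2 fold change of 0.39 (SE 0.36, limma adjusted p = 0.566) was -0.05 without it. Exons of Ptger4 overlap those of Ttc33 and of the pseudogene Gm15937 on the other strand.

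Ratios of paired enzymes within a library are, apart from the added 1 FPKM, free of library scaling, and 6 pairs were compared, each by a two-sided exact permutation test, which with 2 against 2 libraries cannot go below p = 0.333. The log2 ratio of Ptgs2 to Ptgs1 was -2.58 and -1.87 in WT mice and -4.24 and -4.42 in KO mice, a difference of -2.11 (exact p = 0.333, 0.5 adjusted over the 6 pairs). COX-1 transcripts were thus the more abundant in all 4 libraries, by a wider margin in both KO libraries. Ltc4s relative to Lta4h, the alternative fate of leukotriene A, was 1.77 and 3.44 in WT mice and 0.47 and -1.19 in KO mice, a difference of -2.96 (exact p = 0.333). This difference was -2.13 without WT replicate 2 or KO replicate 2, -3.80 without WT replicate 1 and -3.79 without KO replicate 1. Lta4h itself overlapped between the groups, at 17.0 and 18.4 FPKM in the WT pair against 19.2 and 15.04 in the KO pair, and only in KO replicate 2 was Ltc4s the lower of the pair.

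FLAP over 5-lipoxygenase (Alox5ap to Alox5) gave log2 ratios of 3.66 and 5.16 in WT and 3.57 and 2.56 in KO mice, a difference of -1.34 (exact p = 0.333). This separation rested on the added 1 FPKM: the ratio of the deposited FPKM was 14.2 and 43.3 in WT and 15.97 and 15.6 in KO mice, so that the groups overlapped, and the log2 difference was -0.77 with a pseudocount of 0.1 and -0.60 without WT replicate 2. The other 3 pairs whose KO values lay below their WT values did so with the deposited FPKM too. Alox5 over Alox15 gave 2.81 and 2.36 in WT and 1.56 and 0.41 in KO mice, a difference of -1.60 (exact p = 0.333), with Alox15 near the floor throughout. The ratio of synthesis to breakdown of prostaglandin E, Ptges to Hpgd, was 1.61 and 2.79 in WT and 1.67 and 0.54 in KO mice, and the groups overlapped (difference -1.09, exact p = 0.667). Hpgds to Ptgds, the hematopoietic against the lipocalin-type prostaglandin D synthase, was 0.05 and -0.19 in WT and -2.12 and 1.86 in KO mice, a difference of -0.06 (exact p = 1.0). Either KO library leaned the other way from its partner, so this pair shows no common shift.

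**Figure D3:**
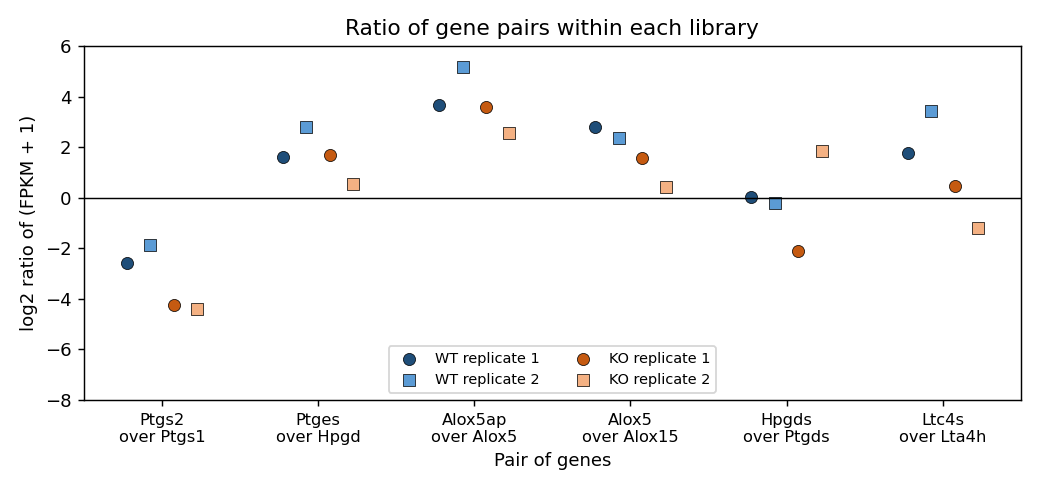
Log2 ratio of (FPKM + 1) of 6 gene pairs in each library, blue for WT and orange for KO mice; a value above 0 means that the first gene of the pair was the more abundant. Both KO libraries lie below both WT libraries for Ptgs2 over Ptgs1, Alox5ap over Alox5, Alox5 over Alox15 and Ltc4s over Lta4h, the second of these only with the added 1 FPKM, and the other pairs overlap.

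The rest of the pathway was read from 6 lists with 60 genes in the table, of which 44 were tested. With the same looser limits 6 of these were lower in KO mice and 4 were higher, where 4.14% and 6.16% of all genes were, and 0 passed the strict threshold. Their median log2 fold change was 0.27 beside 0.11 over all genes, and both KO values lay below both WT values in 12 genes and above them in 13, beside 20.5% and 35.3% of all genes.

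Genes that act around leukotrienes were among those that were lower. In leukotriene synthesis and breakdown 2 of 8 tested genes were lower and 0 higher. Dpep2, a dipeptidase that trims leukotriene D to leukotriene E, measured 20.7 and 29.0 FPKM in the WT pair against 5.31 and 2.86 in the KO pair, a log2 fold change of -2.37 (SE 0.35, limma adjusted p = 0.248). Cyp4f18, a cytochrome of myeloid cells that oxidises leukotriene B, measured 11.4 and 16.6 FPKM in the WT pair against 3.03 and 0.346 in the KO pair (-2.67, SE 0.57). The most abundant gene of the list, Mgst3, a microsomal glutathione transferase, had a log2 fold change of -0.44 (SE 0.27) and was not past the limits. Of 5 tested leukotriene and lipoxin receptors 1 was lower: Fpr2, a formyl peptide receptor that also binds lipoxin A, at 4.54 and 9.89 FPKM in the WT pair against 0.893 and 0.413 in the KO pair (-2.25, SE 0.41), which passed the filter through its WT libraries alone. Exons of Dpep2 overlap those of Dus2l, exons of Cyp4f18 those of Zfp961 and exons of Fpr2 those of the related Fpr3, so that reads could be shared. Cmklr1, a receptor of chemerin and resolvin E, was past the limits with both other scalings and with the replicate block, but not with the values as deposited (-1.79, SE 0.75). Ltb4r1, the high-affinity receptor of leukotriene B and the most abundant of this list, had a log2 fold change of -0.09 (SE 0.30).

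Prostanoid synthesis and breakdown held 14 tested genes, of which 2 were lower and 0 higher. Thromboxane synthase (Tbxas1) measured 9.42 and 11.9 FPKM in the WT pair against 3.24 and 0.249 in the KO pair (log2 fold change -2.33, SE 0.61), and relative to the macrophage list it stood at -2.64 and -3.24 in WT and at -2.03 and -2.11 in KO mice. Akr1b3, an aldose reductase that can form prostaglandin F, measured 32.7 and 48.3 FPKM in the WT pair against 15.99 and 6.47 in the KO pair (-1.85, SE 0.47). Fam213b, a prostamide and prostaglandin F synthase and the most abundant gene of the list, had a log2 fold change of -0.52 (SE 0.28). Of 3 tested prostanoid receptors 1 was lower, the prostacyclin receptor Ptgir, at 2.99 and 2.44 FPKM in the WT pair against 1.36 and 0.232 in the KO pair (-1.12, SE 0.38), and it was no longer past the limits without KO replicate 2 or either WT replicate, or with a pseudocount of 0.1. Ptger3, the EP3 receptor for prostaglandin E and the most abundant of the 3 by its mean over all 4 libraries, had a log2 fold change of -0.80 (SE 0.69). Ptger1, the EP1 receptor, was the more abundant in WT mice (9.44 against 8.42 FPKM). Its log2 fold change of -1.26 (SE 0.61, limma adjusted p = 0.346) was not past the limits, although both KO values (7.04 and 1.35 FPKM) lay below both WT values (8.36 and 10.5 FPKM). With the replicate block, or without KO replicate 1, Ptger1 was past the looser limits. Ptger1 was named after its values were seen.

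Genes on the higher side came from the phospholipases and the epidermal lipoxygenases. Of 9 tested phospholipase A2 genes 2 were higher and 0 lower. Log2 fold changes were positive in 8 of them under each scaling, where 5392 of the 13027 genes had negative ones as deposited and 6420 and 6432 with the other scalings. One of the 8, Pla2g3, passed the filter through its KO libraries alone, and with no filter 10 of 14 were positive. Pla2g2e, a secreted enzyme, measured 1.07 and 1.86 FPKM in the WT pair against 6.36 and 13.8 in the KO pair (log2 fold change 2.10, SE 0.42), and the cytosolic Pla2g4f measured 10.4 and 6.71 FPKM in the WT pair against 26.4 and 28.9 in the KO pair (1.61, SE 0.29). The most abundant, Pla2g2f, an epidermal secreted enzyme, had a log2 fold change of 0.94 (SE 0.70) with overlapping groups, which ran from 0.04 without KO replicate 1 to 1.84, past the looser limits, without KO replicate 2. Of 5 other lipoxygenases 2 were higher and 0 lower. Alox12e, the epidermal 12-lipoxygenase, measured 31.9 and 18.4 FPKM in the WT pair against 107.9 and 264.6 in the KO pair, the largest log2 fold change of the pathway on the higher side (2.75, SE 0.52, limma adjusted p = 0.248). Aloxe3, which works on the skin barrier lipids, measured 10.2 and 6.38 FPKM in the WT pair against 19.8 and 45.9 in the KO pair (1.78, SE 0.47). Relative to the basal keratinocyte list Alox12e stood at -0.59 and -1.40 in WT and at 0.05 and 1.28 in KO mice, each KO value above each WT value. The suprabasal keratinocyte list, in contrast, summed to 2880 and 1560 FPKM in WT and to 6219 and 727 in KO mice, lowest in KO replicate 2, where Alox12e and Aloxe3 were highest, and the part of either layer in these values was not tested.

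**Figure D4:**
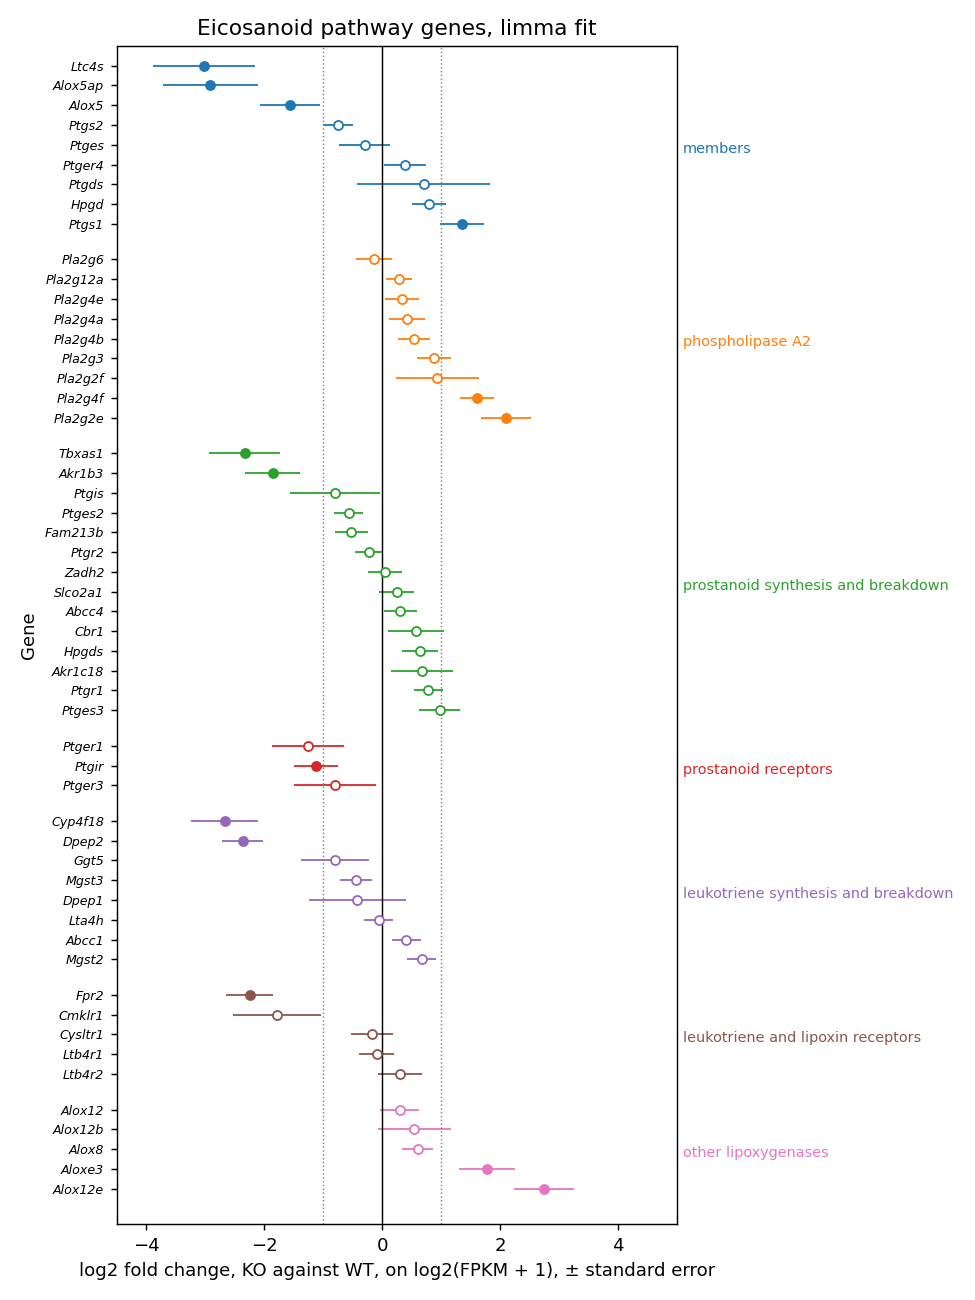
Log2 fold change of KO against WT mice (horizontal axis, limma on log2(FPKM + 1), bars are 1 standard error) for the 9 tested members and 44 other pathway genes by list, with filled points past the looser limits and dotted lines at -1 and 1. Filled points lie to the left for 3 members and 6 other genes and to the right for Ptgs1, 2 phospholipases and 2 epidermal lipoxygenases.

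Without KO replicate 2, the library with few macrophage, fibroblast and endothelial markers, 5 of the other pathway genes were lower (Dpep2, Cyp4f18, Tbxas1, Fpr2 and Akr1b3) and 6 higher, and of the members Alox5ap and Ltc4s were lower and Ptgs1 and Ptgds higher, where 333 of all 13027 genes were lower and 734 higher. Without KO replicate 1 the counts were 12 lower and 6 higher among the other pathway genes, where 1605 of all genes were lower and 1412 higher. Without WT replicate 2, Tbxas1 (-2.18), Akr1b3 (-1.58), Aloxe3 (1.48) and Ptgir (-1.23) were no longer past the looser limits, where 242 of all genes were lower and 266 higher. Dpep2, Cyp4f18, Fpr2, Pla2g2e, Pla2g4f and Alox12e were past them whichever library was left out, of which Fpr2 could be tested only through its higher WT values.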

How the data were processed

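Skin RNA of 2 WT and 2 KO mice was sequenced as paired-end libraries. The submitters' processing notes name HISAT2 2.0.1, StringTie 2.0.6 and build mm9, and the paper's methods describe DESeq2 on counts. The table deposited by the authors is named as counts but holds FPKM, since 99.993% of its values above 0 are not whole, so the authors' division by length and depth is already in the values and no count model could be used; the design had set limma for that case. Values were taken as log2(FPKM + 1) without further scaling, and the 13027 genes that reached 1 FPKM in 2 or more libraries entered a limma 3.58.1 fit (R 4.3.3) on genotype alone, moderated by empirical Bayes with a trend on mean level and adjusted by Benjamini-Hochberg. Depths and fragment numbers were estimated from the steps of low values and are approximate; fragments refer to the longest transcript, and floors cover counting error only. Tables and figures were made with Python 3.11.15, pandas 2.3.3 and scipy 1.17.1.

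The members and lists were chosen with earlier results of these data known. Named beyond the members are pathway genes past the looser limits and the tested gene of each list with the highest mean FPKM. Lta4h and Hpgds are named besides as partners in the ratios, and Pla2g3 for passing the filter through its KO libraries alone. Ptger1, Cmklr1, Ptgdr and Ptger2 were chosen after their values were seen. Loci are those of the table (mm9), strands and exons come from GENCODE vM1 (an exon overlap of Ptger1 is not reported here), and promoters come from RefSeq on GRCm38.p6. Deviations of same-numbered libraries correlated at -0.20 over the 13027 genes and no source ties the numbers to a litter or batch, so samples were treated as unpaired. Alternatives were 2 scalings, another pseudocount, no filter, no trend, the replicate block and leaving out each library.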

Additional observations from a re-analysis of the deposited data

How the results depend on the processing

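The count of members past the strict threshold was 0 under each scaling, pseudocount 0.1, no filter, no trend and the replicate block, and ranged from 0 to 3 when 1 library was left out (3 without KO replicate 1, where 2058 of all 13027 genes passed, and 1 without KO replicate 2, where 43 did). Leaving out 1 library gave 1 to 4 members lower and 0 to 2 higher (1 and 0 without WT replicate 2, 2 higher without WT replicate 1), and 3 to 12 other pathway genes lower (3 without WT replicate 2, 12 without KO replicate 1) and 3 to 7 higher (7 without WT replicate 1), while over all genes the same settings gave 242 to 1605 lower and 266 to 1412 higher. The direction turned for Ptges (0.02 without WT replicate 2, 0.22 without KO replicate 2, lowest -0.80), Ptgds (-1.05 without KO replicate 1, highest 2.46) and Ptger4 (-0.046 without KO replicate 2, highest 0.82). It also turned for the log2 ratio of Hpgds to Ptgds, to 0.16 with pseudocount 0.1 and 0.06 without WT replicate 1, with a range of -2.05 to 1.93 when 1 library was left out. The cause was not tested. With the replicate number as a block, 3 members were lower and 1 higher, 8 other pathway genes were lower and 4 higher (686 and 907 of all genes), and 0 of all genes passed the strict threshold, so the replicate block changed no call on a member. With crossed numbers, added after seeing the data, 2 members were lower and 1 higher, and 7 other pathway genes were lower and 4 higher (681 and 819 of all genes). Same-numbered samples share only a number. Count models were not run, for want of read counts. Depth limits Alox15 and, less so, Ptgs2.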

Other observations

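Ptgdr, the DP1 receptor for prostaglandin D, was outside the tested genes and was chosen after its values were seen. It stood at 0.301 and 0.174 FPKM in the WT pair against 0.475 and 4.15 in the KO pair, so that KO replicate 2 alone exceeded 1 FPKM, and its exons overlap those of the opposite-strand lincRNA Gm16976. In that library Ptgds was at its lowest (1.17 FPKM) and Hpgds at its highest (6.87 FPKM, against 2.70 to 4.69 FPKM in the others). Ptger2, the EP2 receptor, was also left out by the filter, at 0.843 and 1.27 FPKM in the WT pair against 0.491 and 0.183 in the KO pair, with both KO values below both WT values. Ptgdr and Ptger2 were fitted only when the filter on low values was dropped, with limma adjusted p-values of 0.482 and 0.375.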
